A study of Mus musculus with 16 samples.

Results

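The genes described here encode the proteins of the mitochondrial ribosome. They were taken as the non-control probes of the array whose gene name starts with Mrpl or Mrps and a digit, which gave 109 probes for 77 genes, out of 55681 non-control probes and 22644 genes tested. All 4 groups consisted of primary fibroblasts from mouse lung, which had been through at least 3 passages and were transfected with a small interfering RNA (siRNA) 48 hours before harvest. The groups were siLox (siRNA against Lox), siLoxL1 (against Loxl1), siLoxL2 (against Loxl2) and scr (scrambled control siRNA), with 4 one-colour arrays each. The targets are genes of lysyl oxidases, which start the covalent linking of collagen and elastin fibres outside the cell. The labels do not say whether the 4 arrays of a group came from separate animals or cultures, so p-values measure the spread between these arrays, which may be technical. The strain, sex and age of the mice are not given in the sources used here.

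Mitochondria translate a small set of respiratory chain subunits from their own genome, on a ribosome that is distinct from the one in the cytosol. Its ribosomal RNAs come from mitochondrial DNA, whereas all of its proteins are encoded in the nucleus, made in the cytosol and imported. Some of these proteins descend from bacterial ribosomal proteins, and others are found only in mitochondrial ribosomes. The promoters of such genes are known for binding sites of NRF1, of ETS family factors such as GABP, and of YY1. By role, 50 of the genes were placed in the large subunit (30 with a bacterial homologue and 20 specific to mitochondria) and 26 in the small subunit (16 and 10). Mrps30 and Mrps18a were counted in the large subunit, where their human counterparts sit. Mrps36, whose product was later assigned to the 2-oxoglutarate dehydrogenase complex, was given no subunit. Mrps18a and Mrps18b were counted as specific to mitochondria, although they share a bacterial ancestor protein with Mrps18c.

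Promoter sequences are shown first for 4 genes that were higher and 1 gene that was lower in siLox than in scr arrays, together with 1 promoter shared by a pair of the genes. They were taken from RefSeq (GRCm38.p6), run 5′ to 3′ on the strand of the gene, and cover 250 bases before and 50 bases after its start. Capitals mark matches to the searched motifs on either strand. Mrpl22 lies at chr11:58171414-58171713 (plus strand) with 1 ETS match, Mrpl39 at chr16:84735195-84735494 (minus strand) with an NRF1 match, and Mrps16 at chr14:20393441-20393740 (minus strand) with ETS and SP1 matches, of which 1 pair overlaps. A second RefSeq promoter of Mrps16, at chr14:20393585-20393884, held an SP1 match but no ETS match and is not shown. Mrpl50, at chr4:49521034-49521333 (minus strand), held none of the motifs. Mrpl53, the gene that was lower, lies at chr6:83108858-83109157 (plus strand) and held 2 ETS matches. Mrps11 lies at chr7:78782881-78783180 (plus strand) with a YY1 and an SP1 match, and its start is 42 bases from that of Mrpl46 on the other strand.
Mrpl22: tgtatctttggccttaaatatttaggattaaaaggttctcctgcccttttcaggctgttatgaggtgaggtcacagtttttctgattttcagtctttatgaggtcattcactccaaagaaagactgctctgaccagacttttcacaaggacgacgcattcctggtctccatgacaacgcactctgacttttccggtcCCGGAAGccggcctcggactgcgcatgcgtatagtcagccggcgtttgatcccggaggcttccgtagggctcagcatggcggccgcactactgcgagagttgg
Mrpl39: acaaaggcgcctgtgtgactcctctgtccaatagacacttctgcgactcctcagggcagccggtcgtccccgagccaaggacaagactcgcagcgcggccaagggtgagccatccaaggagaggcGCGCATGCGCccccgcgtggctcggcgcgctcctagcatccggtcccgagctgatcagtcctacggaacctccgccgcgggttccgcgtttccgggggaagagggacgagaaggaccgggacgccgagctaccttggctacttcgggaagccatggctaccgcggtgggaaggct
Mrps16: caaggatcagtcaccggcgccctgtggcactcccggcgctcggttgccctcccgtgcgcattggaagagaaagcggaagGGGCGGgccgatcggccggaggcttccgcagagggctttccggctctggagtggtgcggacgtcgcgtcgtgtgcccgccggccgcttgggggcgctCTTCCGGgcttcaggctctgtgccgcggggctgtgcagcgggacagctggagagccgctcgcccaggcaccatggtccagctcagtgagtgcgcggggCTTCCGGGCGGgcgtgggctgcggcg
Mrpl50: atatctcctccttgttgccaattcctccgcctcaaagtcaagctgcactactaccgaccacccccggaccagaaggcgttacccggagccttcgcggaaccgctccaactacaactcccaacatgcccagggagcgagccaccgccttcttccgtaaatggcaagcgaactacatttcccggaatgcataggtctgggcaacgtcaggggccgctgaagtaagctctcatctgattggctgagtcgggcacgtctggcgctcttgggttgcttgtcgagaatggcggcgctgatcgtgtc
Mrpl53: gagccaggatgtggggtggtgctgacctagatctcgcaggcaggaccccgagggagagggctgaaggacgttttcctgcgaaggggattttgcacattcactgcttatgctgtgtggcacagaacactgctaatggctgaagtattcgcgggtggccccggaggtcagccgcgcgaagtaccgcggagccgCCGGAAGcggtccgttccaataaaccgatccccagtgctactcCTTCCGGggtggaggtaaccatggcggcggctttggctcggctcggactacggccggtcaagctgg
Mrps11: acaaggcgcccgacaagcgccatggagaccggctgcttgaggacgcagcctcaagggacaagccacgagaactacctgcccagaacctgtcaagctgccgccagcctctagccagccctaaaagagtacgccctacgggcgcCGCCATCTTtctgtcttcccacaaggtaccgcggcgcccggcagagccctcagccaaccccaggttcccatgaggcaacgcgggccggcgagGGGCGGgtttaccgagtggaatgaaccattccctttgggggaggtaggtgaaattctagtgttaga

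Promoters were found for 68 of the 77 genes. An ETS motif (CCGGAAG) stood in 36.8% of them, against 9.93% of the promoters of all 27025 genes in the same table. The exact NRF1 palindrome, as capitalised in the Mrpl39 promoter, stood in 4.41%, against 1.07% of all promoters, and a wider form that leaves its position 5 free, and so contains the exact one, in 19.1% against 5.19%. The YY1 motif (AAGATGGCG) stood in 11.8% against 1.64%, the SP1 motif (GGGCGG) in 34 of the 68 against 38.2%, the E-box (CACGTG) in 7.35% against 8.09%, and the cAMP response element (TGACGTCA) in 2.94% against 2.03%. All motifs were searched on both strands, and these shares describe letters in a window, not binding.

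Another gene started within 300 bases on the opposite strand for 21 of these 68 genes (30.9%), against 9.47% of all genes with a promoter. The partners include Sars2, the mitochondrial seryl-tRNA synthetase, beside Mrps12, and Twnk, the helicase of mitochondrial DNA, beside Mrpl43. Mrpl46 and Mrps11, whose products belong to different subunits, are each other's partner.

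Slide 1 held the 8 arrays of siLox and scr, slide 2 held the 8 of siLoxL1 and siLoxL2, and every group filled a row of its slide. The comparisons of siLoxL1 and siLoxL2 with scr therefore span the slides, and there the siRNA cannot be told apart from the slide, nor within a slide from the row. Slides also differed in brightness: the 75th percentile used for scaling lay between 9.74 and 9.90 on slide 2 (log2) but between 8.67 and 9.03 on slide 1. The labels were checked by the targeted genes: Lox was lower in siLox than in scr arrays (log2 difference -2.92 ± 0.31 SE, limma adjusted p = 0.0032, exact permutation p = 0.0286, two-sided) and Loxl1 was lower in siLoxL1 than in siLoxL2 arrays (-1.15 ± 0.06, adjusted p = 0.000216, exact permutation p = 0.0286), where 0.0286 is the smallest value 4 against 4 arrays can give. Loxl2 was higher in siLoxL1 than in siLoxL2 arrays by 0.30 ± 0.08, which did not pass (limma adjusted p = 0.0551, exact permutation p = 0.0286). Its level was lower than in scr in siLoxL2 (-1.06) and in siLoxL1 (-0.76). All 10 fibroblast markers were well above background on every array, and 7 of 10 epithelial markers, among them Epcam, Cdh1 and Sftpc, were so on none. In bulk RNA, fewer cells of a type and less RNA per cell cannot be told apart.

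All 77 genes were measured well above background on all 16 arrays by the probe that stood for the gene, so the filter on dim probes removed none of them, and it took out 1 further probe, of Mrpl21. Levels are log2 signals minus the log2 75th percentile of each array, and every difference is one of such log2 values. Mean levels of the genes ran from -0.21 to 6.35 in siLox, -0.68 to 7.16 over siLoxL1 and siLoxL2, and -0.15 to 6.33 in scr arrays. Spread between arrays of a group was small for these genes: the median SD was 0.074 on slide 1, against 0.163 for all genes, and 0.0644 on slide 2, against 0.0969. The SD was largest for Mrps18b on slide 1 (0.21) and for Mrpl24 on slide 2 (0.14).

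Between siLox and scr arrays, 11 of the 77 genes were higher in siLox and 3 were lower (limma, Benjamini-Hochberg adjusted p under 0.05 over all genes). Mrpl22 and Mrpl50 rose most, by 0.72 and 0.69, and Mrpl53 fell by 0.59. Of all genes tested, 11.5% were higher and 13.5% lower, which sets the genes' 14.3% higher near the background and their 3.90% lower below it. The other 63 genes did not pass, with differences between -0.19 and 0.33. The median difference was 0.05 for the genes of the mitochondrial ribosome and -0.05 for all genes. The groups did not overlap for 14 genes higher in siLox (18.2%, against 13.7% of all genes) and 11 lower (14.3%, against 16.9%).

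**Figure D1:**
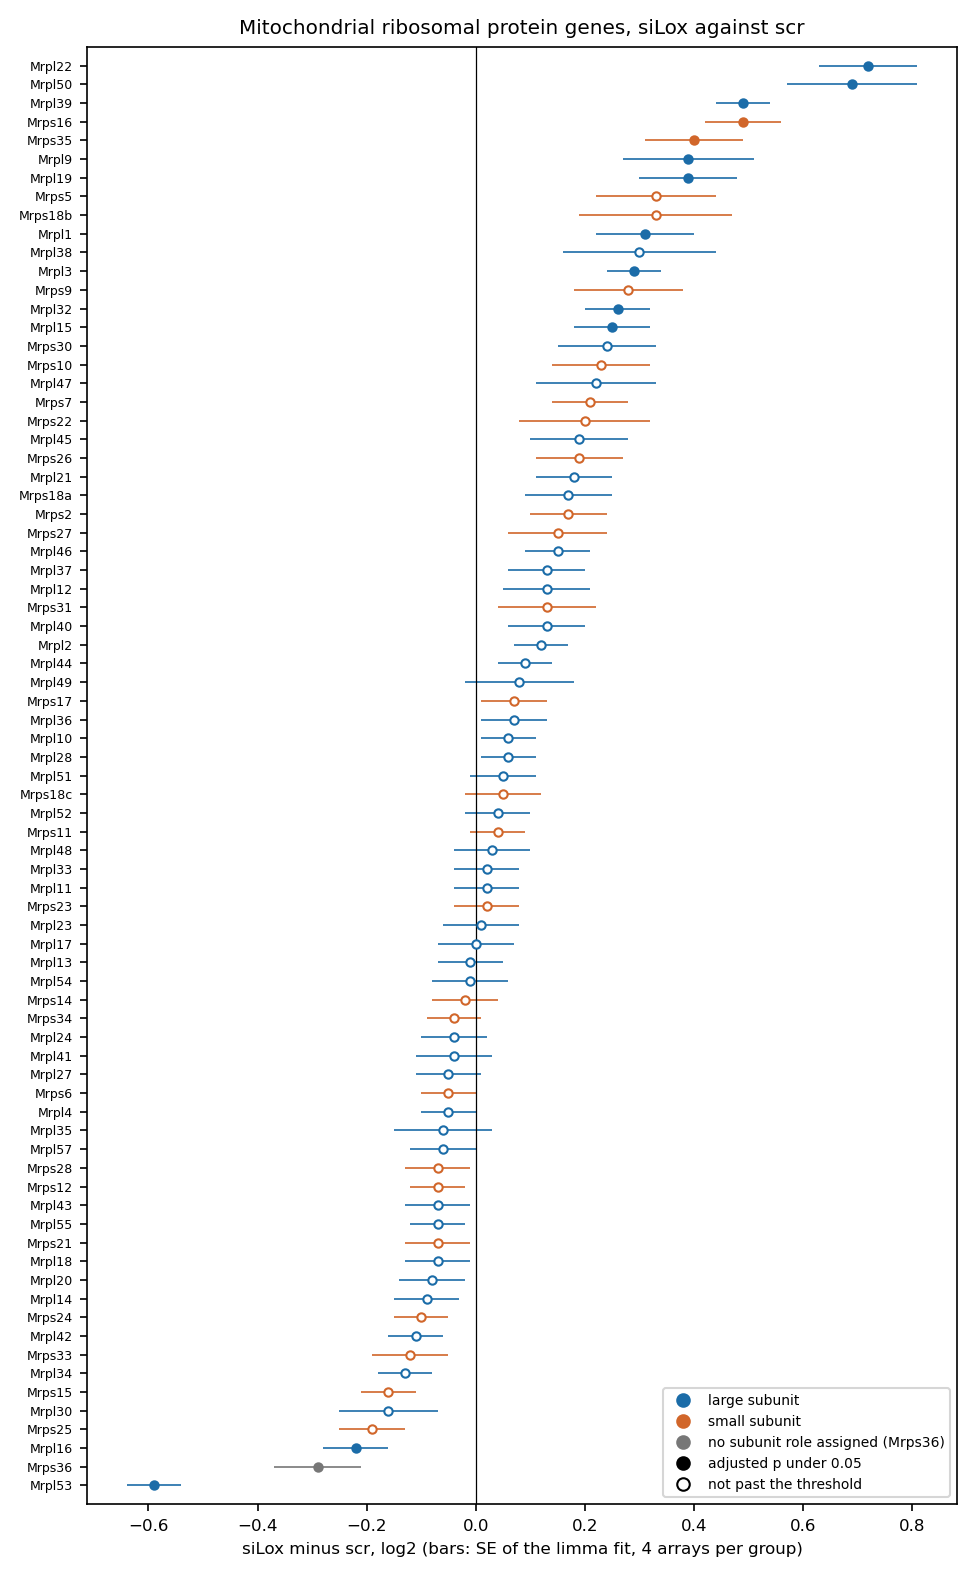
Log2 difference siLox minus scr (horizontal axis) for each of the 77 genes (rows, ordered by the difference), with bars for the limma standard error and 4 arrays per group. Filled points passed the threshold: 11 lie to the right of 0, led by Mrpl22 at 0.72, and 3 to the left, led by Mrpl53 at -0.59.

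Of the large subunit, 9 of 50 genes were higher in siLox (18%, against 11.5% of all genes) and 2 were lower (4%, against 13.5%). Mrpl22, whose bacterial counterpart lines the tunnel through which the nascent protein leaves the ribosome, had levels of 4.25, 4.41, 4.30 and 4.28 in siLox arrays, against 3.52, 3.39, 3.65 and 3.79 in scr arrays. All siLox arrays lay above all scr arrays. The difference was 0.72 ± 0.09 (SE), a 1.65-fold higher signal (adjusted p = 0.00578). A second probe of the gene, listed as spanning chr11:57990734-57992784 in mm9, gave 0.61 ± 0.07, and the probe that stood for the gene lies at chr11:57993002-57993061.

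Mrpl50, specific to mitochondrial ribosomes, had levels of 3.25, 3.22, 3.15 and 3.08 in siLox arrays, against 2.19, 2.51, 2.47 and 2.76 in scr arrays. The groups were apart, with the scr arrays more widely spread than the siLox arrays. Its difference was 0.69 ± 0.12 (1.61-fold, adjusted p = 0.0114) at chr4:49525602-49525661 (mm9), and 0.42 ± 0.12 by its second probe. Mrpl39, a mitochondrion-specific protein related in sequence to threonyl-tRNA synthetases, had 3.24, 3.16, 3.25 and 3.19 in siLox arrays, against 2.70, 2.73, 2.74 and 2.71 in scr arrays. The arrays within each group lay close together, and the difference was 0.49 ± 0.05 (1.40-fold, adjusted p = 0.00246) at chr16:84718547-84718606. Its second, much dimmer probe gave 0.16 ± 0.10 and did not pass (adjusted p = 0.258 in the fit of all probes).

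Mrpl3, a counterpart of the bacterial protein near the centre of peptide bond formation, had 4.43, 4.45, 4.37 and 4.37 in siLox arrays, against 4.06, 4.17, 4.11 and 4.11 in scr arrays. This smaller difference of 0.29 ± 0.05 (1.22-fold, adjusted p = 0.0127) again came without overlap. Among the further bacterial homologues, Mrpl19 differed by 0.39 ± 0.09 (adjusted p = 0.0226), Mrpl9 by 0.39 ± 0.12 (0.0471), Mrpl1, of the mobile L1 stalk, by 0.31 ± 0.09 (0.042), Mrpl32 by 0.26 ± 0.06 (0.028) and Mrpl15 by 0.25 ± 0.07 (0.0316). For Mrpl9 the groups overlapped, with 2.85 on the lowest siLox array and 2.91 on the highest scr array.

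The lowest difference was that of Mrpl53, a mitochondrion-specific protein of the large subunit. Its levels were 3.99, 4.04, 4.01 and 4.07 in siLox arrays, against 4.59, 4.64, 4.58 and 4.65 in scr arrays. The gap between the groups was wide compared with the spread inside them, and the difference was -0.59 ± 0.05 (0.665-fold, adjusted p = 0.00137) at chr6:83059717-83059776 (mm9). Mrpl16, a counterpart of a bacterial protein at the tRNA binding face of the large subunit, had 3.29, 3.43, 3.45 and 3.50 in siLox arrays, against 3.68, 3.58, 3.66 and 3.62 in scr arrays, a difference of -0.22 ± 0.06 (adjusted p = 0.0404). Mrps36 had 3.10, 3.27, 3.28 and 3.36 in siLox arrays, against 3.66, 3.60, 3.52 and 3.39 in scr arrays. These groups were also apart, by a narrow margin, and differed by -0.29 ± 0.08 (adjusted p = 0.0409). Mrps36 had 2 detected probes, both negative, which did not both pass in the fit of all probes.

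Of the small subunit, 2 of 26 genes were higher in siLox arrays (7.69%, against 11.5% of all genes) and 0 were lower (against 13.5%). An unadjusted p under 0.05 was found for 9 of the 26 genes. Over all 22644 genes tested, 9406 had an unadjusted p under 0.05 (limma). Mrps16, a counterpart of bacterial S16 whose human gene is mutated in a respiratory chain deficiency, had 4.84, 4.98, 5.01 and 4.89 in siLox arrays, against 4.30, 4.57, 4.45 and 4.45 in scr arrays. Every siLox array exceeded every scr array, and the difference was 0.49 ± 0.07 (1.40-fold, adjusted p = 0.00868) at chr14:21210454-21210513 (mm9). Mrps35, specific to mitochondrial ribosomes, had 2.20, 2.22, 2.24 and 2.16 in siLox arrays, against 1.60, 1.86, 1.77 and 2.01 in scr arrays. The difference was 0.40 ± 0.09 (adjusted p = 0.0217). Mrps7, of the head of the small subunit, missed the threshold at 0.21 ± 0.07 (adjusted p = 0.0574), and so did Mrps25 at -0.19 ± 0.06 (adjusted p = 0.0635).

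The paralogues Mrps18a, Mrps18b and Mrps18c descend from 1 bacterial protein, and the human products sit in different places of the ribosome. None passed in siLox against scr, with differences of 0.17 ± 0.08 (adjusted p = 0.131), 0.33 ± 0.14 (0.107) and 0.05 ± 0.07 (0.619). Mrps18b had 5.90, 6.05, 6.09 and 5.92 in siLox arrays, against 5.31, 5.76, 5.60 and 5.96 in scr arrays. Replicate 4 of scr thus lay among the siLox arrays, and replicate 1 lay far below them.

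**Figure D2:**
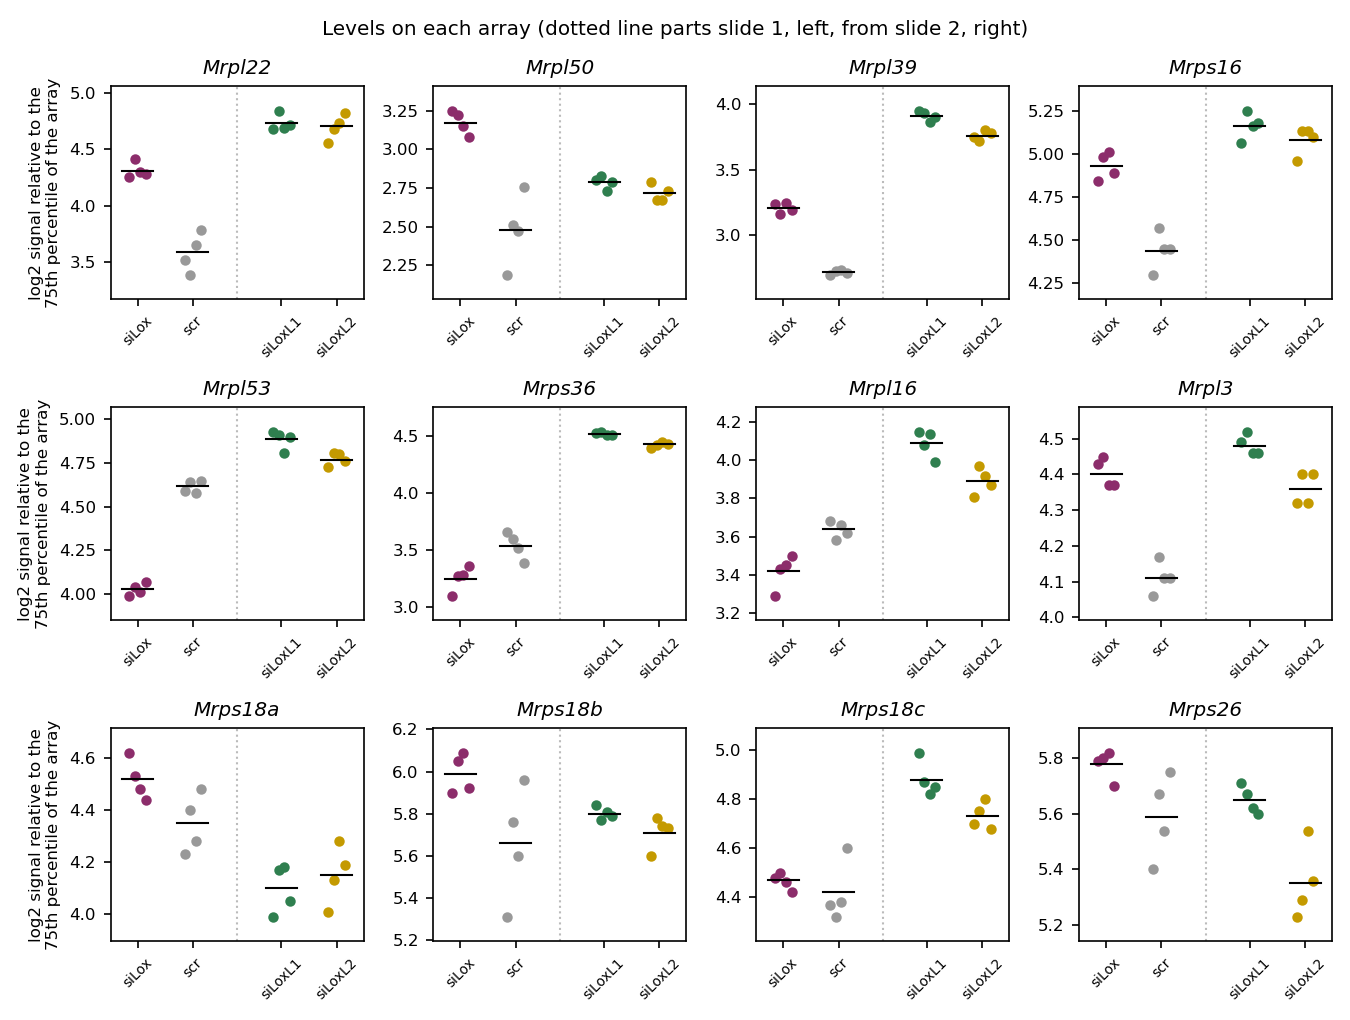
Log2 level (signal over the array's 75th percentile; vertical axes, which differ between panels) on each of the 16 arrays for 12 genes, with a line at the mean of the 4 arrays of a group. In the panels of Mrpl22, Mrpl39, Mrps16 and Mrpl3 the siLox arrays lie above the scr arrays, and in that of Mrpl53 below them, from 3.99 to 4.07 against 4.58 to 4.65.

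The scr arrays differed among themselves in these genes. Averaged over the 77 genes, the level was 3.92, 3.92, 3.92 and 3.88 on the siLox arrays, against 3.75, 3.85, 3.80 and 3.89 on the scr arrays, so that scr replicate 4 lay inside the siLox range. Replicate 4 was the highest scr array for 39 of the 77 genes, and replicate 1 the lowest for 44. Without scr replicate 4 the count of genes past the threshold was 22 in place of 14, and without replicate 4 of both groups it was 25. The share of all genes past the threshold was also larger under these settings, at 34.6% and 34.4% in place of 25%. Leaving out each other array gave 6 to 14 genes, with 8.08% to 23.6% of all genes past the threshold. The 6 genes Mrpl22, Mrpl3, Mrpl39, Mrpl50, Mrps16 and Mrpl53 passed whichever of the 8 arrays was left out. The calls of Mrpl1, Mrpl9, Mrpl15, Mrpl16, Mrpl32 and Mrps36 were lost without any 1 of the first 3 replicates of either group, and those of Mrpl19 and Mrps35 without 5 and 4 of the 8 arrays.

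**Figure D3:**
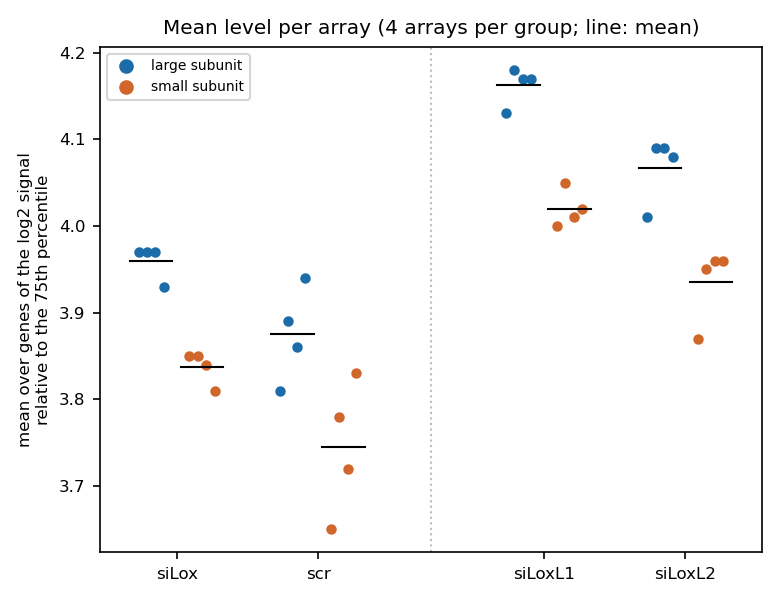
Mean over the genes of the large (50 genes) and small (26 genes) subunit of the log2 signal relative to the 75th percentile (vertical axis), for each array of the 4 groups, with a line at the mean of 4 arrays. On slide 1, left of the dotted line, scr replicate 4 lies within the range of siLox for the large subunit at 3.94 and the small subunit at 3.83.

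The other genes of mitochondrial translation and of the RNA supply to it were compared by lists, in the same fit. In that fit, 11.5% of all genes were higher in siLox arrays and 13.5% were lower. Of 6 other proteins of the mitochondrial ribosome, Chchd1 of the small subunit was higher in siLox arrays by 0.35 ± 0.08 (adjusted p = 0.0219), and Aurkaip1, of the same subunit, was lower by -0.22 ± 0.06 (0.0288). Of 24 genes of ribosome assembly and rRNA modification, 6 were higher (25%) and 1 was lower (4.17%), with a median of 0.17. Among them, the rRNA methyltransferase Mrm3 and the pseudouridine synthase Rpusd4 were each higher by 0.59 (adjusted p = 0.0267 and 0.028), the GTPase Mtg2 by 0.46 (0.0457) and the RNA helicase Ddx28 by 0.45 (0.0364).

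Of 14 translation factors, 3 were higher in siLox arrays (21.4%, against 11.5% of all genes) and 1 was lower (7.14%, against 13.5%). The release factor Mtrf1l was higher by 0.58 ± 0.09 (adjusted p = 0.00894), the recycling factor Mrrf by 0.43 ± 0.10 (0.0247) and the initiation factor Mtif3 by 0.33 ± 0.10 (0.0434), while the elongation factor Gfm1 differed by -0.21 ± 0.05 (0.0275). Of 17 mitochondrial aminoacyl-tRNA synthetases, 5 were higher (29.4%, against 11.5% of all genes) and 0 lower (against 13.5%). An unadjusted p under 0.05 was found for 9 of the 17, against 9406 of all 22644 genes. Fars2, which charges phenylalanine, had 3.65, 3.72, 3.70 and 3.67 in siLox arrays, against 2.55, 2.75, 2.75 and 2.86 in scr arrays. The groups were far apart, and the difference of 0.96 ± 0.07 (adjusted p = 0.00102) exceeded that of every gene of the mitochondrial ribosome. Tars2, Vars2 and Yars2, for threonine, valine and tyrosine, were higher by 0.46, 0.44 and 0.32. For Yars2 the groups overlapped, with 2.97 on the lowest siLox array and 3.00 on the highest scr array.

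Of 13 genes of mitochondrial transcription and RNA processing, 5 were higher in siLox (38.5%, against 11.5% of all genes) and 0 lower (against 13.5%). Their median was 0.28. An unadjusted p under 0.05 was found for 8 of them, against 9406 of all 22644 genes. Supv3l1, a helicase of mitochondrial RNA turnover, had 3.09, 2.74, 2.85 and 2.53 in siLox arrays, against 1.40, 2.08, 1.96 and 2.36 in scr arrays. Its groups were apart but spread widely, and the difference was 0.85 ± 0.21 (adjusted p = 0.0277). Trmt10c, a subunit of mitochondrial RNase P, was higher by 0.65 ± 0.19 (0.045), though its arrays overlapped, with 1.63 on the lowest siLox array and 1.69 on the highest scr array. The poly(A) polymerase Mtpap was higher by 0.54 ± 0.12 (0.0202) and the elongation factor Tefm by 0.37 ± 0.08 (0.0227).

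Of 12 regulators of mitochondrial gene programmes, 3 had an unadjusted p under 0.05, against 9406 of all 22644 genes. After adjustment 2 were higher (16.7%, against 11.5% of all genes) and 0 lower (against 13.5%). They were Myc, a growth regulator, at 0.60 ± 0.13 (adjusted p = 0.0206) and Yy1 at 0.28 ± 0.08 (0.0447). For Yy1 the groups were not apart, with 2.45 on the lowest siLox and on the highest scr array. The 75 proteins of the cytosolic ribosome stood at a median of -0.12, with 0 higher and 5 lower, and 83 subunits of oxidative phosphorylation at a median of -0.13, with 2 higher and 13 lower. These lists were described by counts and medians, and no test set one list against another.

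**Figure D4:**
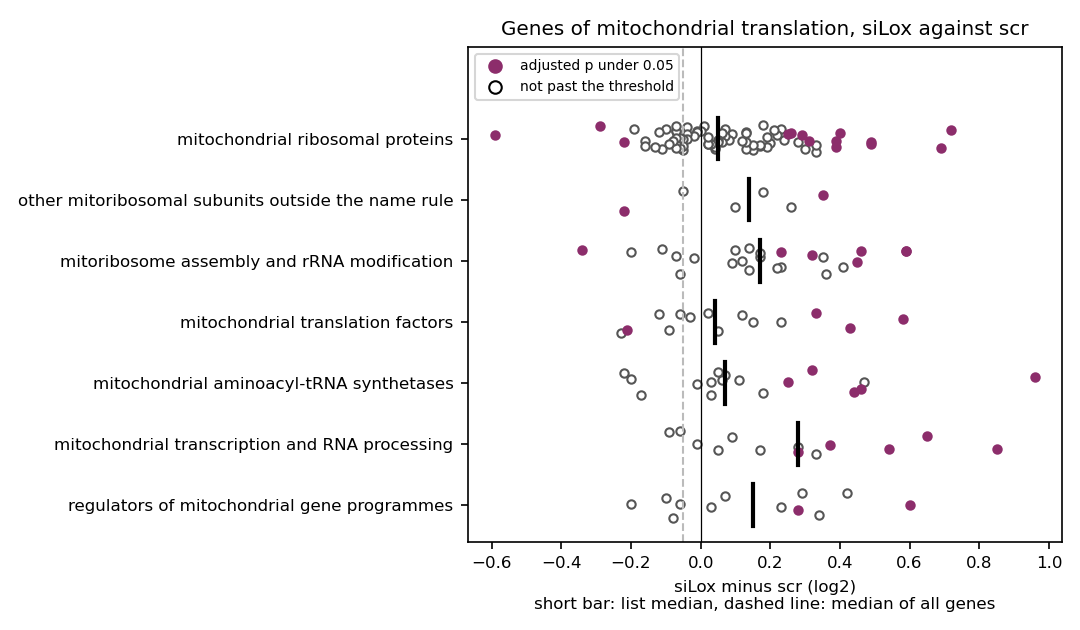
Log2 difference siLox minus scr (horizontal axis) of each gene of the mitochondrial ribosome and of 6 lists of related genes (rows), with filled points past the threshold and a short bar at the list median. The medians run from 0.04 for the translation factors to 0.28 for transcription and RNA processing, and the dashed line is the median of all genes at -0.05.

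Markers of other cells differed between siLox and scr arrays as well, where 11.5% of all genes were higher and 13.5% lower. Of 6 detected markers of pericytes and smooth muscle, 1 was higher and 4 were lower in siLox arrays, and their summed signal, in units of the array's 75th percentile, was 17.0 to 23.9 in siLox and 23.0 to 34.3 in scr arrays. The 10 fibroblast markers all had negative differences, with 3 past the threshold and a median of -0.44. Their sums were 758 to 1020 in siLox and 1080 to 1160 in scr arrays. Of the 10 detected leukocyte and macrophage markers, 1 was higher and 0 lower, with a median difference of 0.56. Their sums were 22.6 to 27.0 in siLox and 21.9 to 24.9 in scr arrays. Of the 6 mesothelial markers, all detected, 1 was higher and 4 were lower in siLox arrays, with a median difference of -0.31, while their sums lay between 12.9 and 14.4 over both groups. Endothelial markers, 5 of 8 detected, summed to 3.20 to 4.99 in siLox and 4.67 to 5.56 in scr arrays. The part of these differences in the results was not tested.

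The 3 genes whose promoter held the exact NRF1 motif were Mrpl9, Mrpl32 and Mrpl39, all among the 8 higher genes with a promoter. The wider form stood in the same 3 of those 8 genes and in 10 of the 57 that did not pass. With each of the 8 arrays left out in turn, Mrpl9 and Mrpl32 kept their calls in only 2 fits each. The groups of Mrpl9 also overlapped. Whether the motif bears on the differences was not tested. An ETS match was present in 3 of 8 higher genes, 1 of 3 lower genes and 21 of 57 that did not pass. Of 20 head-to-head partners tested, with Mrpl46 and Mrps11 counted from both sides, 4 were past the threshold in siLox against scr. Of all genes, 25% passed in that comparison. Both sides passed for 1 pair: Zfp189, whose start lies 93 bases from that of Mrpl50, was higher by 0.38 ± 0.11 (adjusted p = 0.0409). For Mrpl27 and Eme1, 48 bases apart, only the partner passed, at 0.60 ± 0.15 against -0.05 ± 0.06 for Mrpl27. For Mrpl46 and Mrps11 neither passed, with 0.15 ± 0.06 and 0.04 ± 0.05.

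Between siLoxL1 and siLoxL2 arrays, 6 of the 77 genes were higher in siLoxL1 and 0 lower, with small differences of 0.16 to 0.30. That is 7.79% higher, against 6.10% of all genes, and 0% lower, against 2.70%. Of the 77 genes, 38 had an unadjusted p under 0.05, against 6143 of all 22644 genes. The sign was positive for 66 of the 77 genes, against 13325 of all 22644 genes. It was also positive for 68 of 75 proteins of the cytosolic ribosome and 69 of 83 subunits of oxidative phosphorylation. The groups did not overlap for 37 of the 77 genes, all higher in siLoxL1 (48.1%, against 14.7% of all genes, with 5.62% of all genes lower). For the cytosolic ribosome 17.3% were higher without overlap and 0% lower, and for oxidative phosphorylation 30.1% and 1.2%. The median difference of the 77 genes was 0.11, against 0.03 for all genes. With quantile normalization 0 of the 77 genes passed, against 6.62% of all genes, and the median was 0.05. Leaving out any 1 array left 0 or 1 of the 77 past the threshold, against 2.69% to 6.22% of all genes. With the replicate number as a block in the fit, 0 of the 77 and 3.77% of all genes passed. Of 5 detected endothelial markers 0 were higher and 2 lower in siLoxL1. Their sums were 5.67 to 6.02 in siLoxL1 and 5.79 to 6.28 in siLoxL2 arrays. Leukocyte and macrophage markers, 1 of 10 lower, summed to 30.7 to 33.5 in siLoxL1 and 33.7 to 36.7 in siLoxL2 arrays without overlap. All 6 detected pericyte and smooth muscle markers had negative differences, with a median of -0.14, and 0 passed. Of 10 fibroblast markers 0 passed, with differences from -2.66 to 0.19. Their sums were 767 to 1110 in siLoxL1 and 1020 to 1080 in siLoxL2 arrays. Of 6 mesothelial markers 1 was higher and 0 lower, and of 3 tested epithelial markers 0 passed. The part of these markers in the results was not tested.

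Mrps26, specific to mitochondrial ribosomes, differed most. Its levels were 5.71, 5.67, 5.62 and 5.60 in siLoxL1 arrays, against 5.23, 5.29, 5.54 and 5.36 in siLoxL2 arrays. The groups were apart, with siLoxL2 replicate 3 near the siLoxL1 arrays, and the difference was 0.30 ± 0.07 (1.23-fold, adjusted p = 0.0386). Its second probe gave 0.12 ± 0.08 and did not pass (adjusted p = 0.369 in the fit of all probes).

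Mrpl14, which in human cells docks an assembly factor of the large subunit, had 5.64, 5.70, 5.65 and 5.64 in siLoxL1 arrays, against 5.35, 5.52, 5.44 and 5.50 in siLoxL2 arrays, a difference of 0.20 ± 0.05 (adjusted p = 0.0367). Mrpl11, at the base of the stalk that contacts translation factors, differed by 0.18 ± 0.04 (0.0372), Mrps17 by 0.18 ± 0.04 (0.0414), Mrps33 by 0.17 ± 0.04 (0.0465) and Mrpl27, near the centre of peptide bond formation, by 0.16 ± 0.04 (0.0391). All of these groups were apart, with fold differences of at most 1.15. Mrps17, Mrps26, Mrps33 and Mrpl27 each had 2 detected probes, of the same sign. For none of these genes did all probes pass in the fit of all probes. On the lower side the smallest p-values belonged to Mrpl35 at -0.11 ± 0.05 (adjusted p = 0.221), Mrps2 at -0.10 ± 0.06 (0.308) and Mrps5 at -0.09 ± 0.08 (0.498), and none passed.

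The Mrps18 paralogues gave -0.06 ± 0.07, 0.09 ± 0.05 and 0.15 ± 0.05 for Mrps18a, Mrps18b and Mrps18c in siLoxL1 against siLoxL2, and none passed (adjusted p = 0.639, 0.253 and 0.102). The mean level over the 77 genes was 4.09, 4.14, 4.12 and 4.12 on siLoxL1 arrays, against 3.97, 4.05, 4.05 and 4.04 on siLoxL2 arrays. These ranges did not overlap, though they lay within 0.17 of each other from end to end. Replicate 1 of siLoxL2 was the lowest array of its group for 61 of the 77 genes. Without it the median difference was 0.09, and 0 of the 77 and 6.22% of all genes passed.

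**Figure D5:**
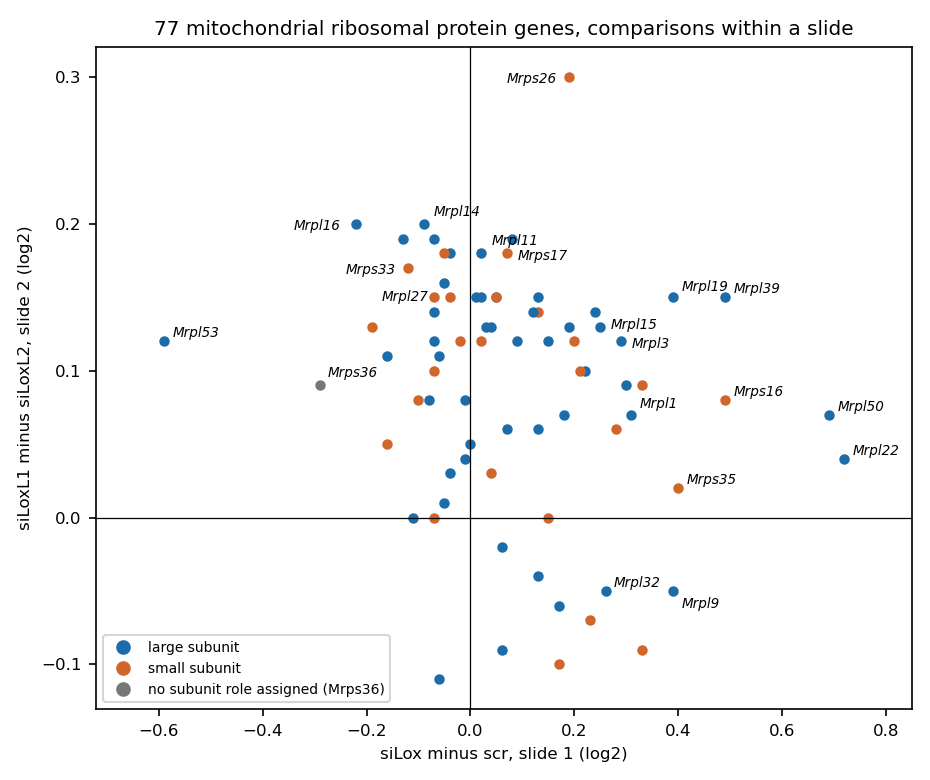
Difference siLox minus scr on slide 1 (horizontal axis, log2) against siLoxL1 minus siLoxL2 on slide 2 (vertical axis, log2) for the 77 genes, coloured by subunit, with names for genes that passed in either comparison. The points spread from -0.59 to 0.72 sideways and only from -0.11 to 0.30 upwards, and the genes highest in siLox, Mrpl22 and Mrpl50, lie near 0 on slide 2.

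The 2 comparisons within a slide share no array. Across the 77 genes their differences had a Pearson correlation of -0.21 and a Spearman correlation of -0.24, a description over genes, which are not independent. Mrpl22 and Mrpl50 differed by 0.04 and 0.07 between siLoxL1 and siLoxL2, though the second probe of Mrpl50 differed by 0.22 ± 0.04 (adjusted p = 0.0168 in the fit of all probes), and Mrpl53 differed by 0.12. No gene passed in both comparisons by the probe that stood for it. The differences of the genes were also related to their mean level over all 16 arrays, which include the compared arrays. The Spearman correlation was -0.35 in siLox against scr and 0.34 in siLoxL1 against siLoxL2. With the GC content of the probe it was -0.10 and -0.21. These correlations were not computed over all genes.

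Within groups, the genes varied together only loosely. The mean correlation between pairs of genes, taken over deviations of the 8 arrays of a slide from their group means, was 0.15 on slide 1 and 0.24 on slide 2. It was 0.57 and 0.37 for proteins of the cytosolic ribosome, 0.22 and 0.35 for oxidative phosphorylation, and 0.01 on both slides for all genes. The large and small subunits were alike in this, at 0.15 and 0.16 on slide 1 and 0.23 and 0.24 on slide 2. These points share arrays and their scaling.

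Compared with scr, where slide and siRNA cannot be told apart, 48 genes were higher and 15 lower in siLoxL1 arrays, and 44 were higher and 18 lower in siLoxL2 arrays. Both comparisons use the same scr arrays. Of all genes, 43.3% were higher and 21.9% lower in siLoxL1, against 62.3% and 19.5% of the 77, and 41.4% and 23.4% in siLoxL2, against 57.1% and 23.4%. Median differences were 0.35 in siLoxL1, against 0.19 for all genes, and 0.26 in siLoxL2, against 0.17. With quantile normalization the counts became 38 higher and 26 lower in siLoxL1 and 32 higher and 26 lower in siLoxL2, with medians of 0.14 and 0.08 beside 0.08 and 0.07 for all genes. Of all 22644 genes, 7819 were then higher and 6267 lower in siLoxL1, and 7618 higher and 6530 lower in siLoxL2. Tested epithelial markers (3 of 10) summed to 0.497 to 0.658 in siLoxL1, 0.495 to 0.580 in siLoxL2 and 4.75 to 7.12 in scr arrays. Of the 6 mesothelial markers 2 were higher and 4 lower than in scr in both groups, with sums of 20.8 to 22.6 in siLoxL1, 20.6 to 23.5 in siLoxL2 and 12.9 to 13.9 in scr arrays, and the 10 detected leukocyte and macrophage markers summed to 30.7 to 33.5, 33.7 to 36.7 and 21.9 to 24.9. The part of these markers in the results was not tested.

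Mrpl39 and Mrpl22 differed most in this direction. Mrpl39 was higher by 1.19 ± 0.04 in siLoxL1 and 1.04 ± 0.04 in siLoxL2 (adjusted p = 8.68e-12 and 5.77e-11). Its levels were 3.95, 3.93, 3.86 and 3.90 in siLoxL1 and 3.75, 3.72, 3.80 and 3.78 in siLoxL2 arrays, against 2.70, 2.73, 2.74 and 2.71 in scr arrays. Mrpl22 differed by 1.15 ± 0.08 and 1.11 ± 0.08, a 2.21-fold and 2.16-fold higher signal. Both genes were also higher in siLox arrays than in the same scr arrays, by 0.49 and 0.72.

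Among the other large positive differences, those that ranked among the 8 highest of either comparison belonged to Mrpl34 (1.07 in siLoxL1 and 0.89 in siLoxL2), Mrps14 (1.00 and 0.88), Mrps36 (0.98 and 0.89), Mrps33 (0.95 and 0.78), Mrps21 (0.94 and 0.84), Mrpl49 (0.86 and 0.67) and Mrps25 (0.82 and 0.70). For Mrps36 the sign was opposite to that in siLox, which differed from the same scr arrays by -0.29, and for Mrpl53 the values were 0.27 and 0.16 beside -0.59.

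Lower than scr were Mrpl38 (-0.52 in siLoxL1 and -0.61 in siLoxL2), Mrpl32 (-0.58 and -0.53), Mrpl9 (-0.58 and -0.52), Mrps5 (-0.58 and -0.48), Mrpl35 (-0.53 and -0.42), Mrps31 (-0.32 and -0.46), Mrpl1 (-0.35 and -0.42), Mrps30 (-0.29 and -0.43) and Mrps2 (-0.37 and -0.27). Mrpl9, Mrpl32 and Mrpl1 had been higher in siLox arrays than in these scr arrays, by 0.39, 0.26 and 0.31. Mrps18a was lower by -0.25 and -0.19, Mrps18c was higher by 0.47 and 0.32, and Mrps18b did not pass in either comparison (0.15 and 0.06). The differences were again related to the mean level, with a Spearman correlation of 0.48 in siLoxL1 and 0.44 in siLoxL2.

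Different probes of 1 gene did not always tell the same. Of the 27 genes with several detected probes, all probes had the same sign for 22 in siLox against scr and for 20 in siLoxL1 against siLoxL2. In siLoxL2 against scr, probes of opposite sign both passed for Mrpl50 and Mrps26. The brightest probe of Mrpl50 gave 0.23 ± 0.09 and its second probe, at chr4:49527089-49527148 (mm9), -0.24 ± 0.09, and for Mrps26 the values were -0.24 ± 0.08 and 0.25 ± 0.08. In siLox against scr, the 5 higher genes with several probes (Mrpl9, Mrpl15, Mrpl22, Mrpl39 and Mrpl50) were positive by all of them, and both probes passed for 3 of these, Mrpl15, Mrpl22 and Mrpl50.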

How the data were processed

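Cy3-labelled total RNA of 16 samples was hybridised to Agilent arrays, 4 per group, and groups and replicate numbers were read from the sample titles. Per the file headers and the submitters' processing notes, the deposited scanner files hold an intensity value per spot from Agilent Feature Extraction 10.7.3.1, background subtracted within each array. The authors' value table holds log2 values whose sorted columns differed by at most 0.000965, and it served as an alternative. Columns of the value table that belong to no sample numbered 0. Further deposited columns hold flags (a score of 0 or 1 per spot). Probe positions were read from the scanner files (mm9).

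Outlier spots were left out, replicate spots averaged per probe, and each array scaled by the 75th percentile of its non-control signals before log2. A probe was kept when well above background on all 4 arrays of a group, and the brightest stood for the gene. Genes were tested with limma 3.58.1 in R 4.3.3 (lmFit, contrasts.fit, eBayes), with p-values adjusted by Benjamini-Hochberg over 22644 genes and a threshold of 0.05. Comparisons within a slide used its 8 arrays, and those with scr across slides used all 16. Probe-level p-values come from a fit of all detected probes. The number of arrays limits the precision.

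The genes, lists and tests were chosen with earlier results of these data known. Of those past the threshold, the 8 highest and 8 lowest genes per comparison are named, or the 3 with the lowest p on a side where fewer than 3 passed. Also named are the 2 genes per role group with the lowest p in siLox against scr, the Mrps18 paralogues, genes whose probes disagree, and up to 4 per related list. Genes named to complete a count (Mrpl15 and Mrpl32 in siLox against scr), the values of named genes in other comparisons, and the head-to-head pairs were chosen after their values were seen. RefSeq (GRCm38.p6) gave symbols and promoters, and the probe of Ict1, which RefSeq calls Mrpl58, was outside the name rule. The alternatives were quantile and median scaling, normexp with an offset of 50, the authors' table, 2 other filters on dim probes, the mean of all probes, other arrays in the fit, array weights, another prior, a replicate block and leaving out arrays.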

Additional observations from a re-analysis of the deposited data

Results flagged for a closer look

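Among 136 sets of 4 arrays examined for an array that stands apart from the other 3, 5 did so, and chance gives about 1 in 20. Mrps25 was at 3.96 on scr replicate 4, against 4.08 on each of the other scr arrays. Mrpl14 was at 4.91 on siLox replicate 1, below 5.02 to 5.03 on the others. Mrps33 was at 4.50 on siLox replicate 1, below 4.67 to 4.70, and at 5.66 on siLoxL1 replicate 4, below 5.73 to 5.74. Mrpl32 was at 2.77 on siLoxL1 replicate 1, below 3.04 to 3.06. Each of these arrays was the lowest of its group.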

How the results depend on the processing

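The count of 14 genes past the threshold in siLox against scr became 8 with no filter on dim probes, which tests more genes, 28 with all 16 arrays in the fit, 25 without replicate 4 of both groups, and 6 to 22 when each array was left out in turn. Its median stayed at 0.03 to 0.07 when arrays were left out. Of all genes, 25% passed as reported, 8.55% with no filter, 43% with all 16 arrays and 34.4% without replicate 4. That share was 8.08% to 34.6% when each array was left out in turn. The count of 6 in siLoxL1 against siLoxL2 became 0 with quantile normalization, 0 with the authors' table, 0 with no filter, 0 without replicate 4 of both groups, 11 with normexp, 15 when probes had to be above background on all 16 arrays, 25 with a trended and robust prior, and 0 to 1 when arrays were left out. Of all genes, 8.81% passed as reported, 10.6% with normexp, 15% with probes above background on all 16 arrays and 14.3% with the other prior. That share was 6.62% with quantile normalization, 6.66% with the authors' table and 1.86% with no filter. Without replicate 4 of both groups it was 0.733%, and 2.69% to 6.22% when arrays were left out. The median of the 77 genes was 0.05 with quantile normalization and the authors' table and 0.18 with median scaling. It was 0.09 to 0.12 when arrays were left out. With the replicate block the counts were 0 in siLox against scr, where 3 of all 22644 genes passed, and 0 in siLoxL1 against siLoxL2, where 853 (3.77%) passed. Replicate numbers were not taken to pair the arrays, since not every same-numbered pair correlated above 0.1: same-numbered arrays correlated at -0.19 to 0.00 on slide 1 and at 0.04 to 0.22 on slide 2, where every array correlated best with its own number, a hint from the data only.

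In siLoxL1 against scr the median of 0.35 was 0.14 with quantile normalization and the authors' table, 0.27 with the mean of all probes and 0.31 to 0.37 when arrays were left out, with 60 to 63 genes past the threshold. In siLoxL2 against scr the median of 0.26 was 0.08 with quantile normalization and the authors' table, 0.16 with median scaling and 0.32 with normexp. It was 0.24 to 0.28 when arrays were left out, with 58 to 61 genes past the threshold. Of all genes, 61.5% to 66.5% then passed in siLoxL1 and 60.8% to 66.1% in siLoxL2. With normexp the median of all genes moved to -0.07 in siLoxL1 and -0.09 in siLoxL2 against scr, and the split of the 77 genes was 53 higher and 10 lower in siLoxL1 and 50 and 11 in siLoxL2, while of all genes 8294 were higher and 9875 lower in siLoxL1 and 7903 and 10024 in siLoxL2. Mrps18b reversed to -0.14 in siLoxL1 against scr (quantile normalization and the authors' table) and, in siLoxL2 against scr, to -0.18 with both, -0.04 with median scaling and -0.06 without scr replicate 1. Mrps18a in siLoxL1 against siLoxL2 went to 0.00 with median scaling. The causes of these changes were not tested. The slide as a random block was not run, since each group lies on 1 slide.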

Other observations

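Other genes of the mitochondrial gene expression system were also compared between siLoxL1 and siLoxL2 arrays, where 6.10% of all genes were higher and 2.70% lower. An unadjusted p under 0.05 was found there for 6143 of all 22644 genes. Of 6 other proteins of the mitochondrial ribosome, 2 were higher in siLoxL1 and 0 lower. Of 24 genes of ribosome assembly and rRNA modification, 3 were higher in siLoxL1 and 0 lower, and of 17 aminoacyl-tRNA synthetases 1 was higher and 0 lower. Of 14 translation factors 0 passed (limma), with 1 at an unadjusted p under 0.05. Of 13 genes of transcription and RNA processing 2 were higher and 1 was lower, and of 12 regulators 1 was higher. Subunits of oxidative phosphorylation had 5 higher and 1 lower of 83, and of 75 proteins of the cytosolic ribosome 0 passed (limma), with 16 at an unadjusted p under 0.05.

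Against scr, across the slides, 79 of 83 oxidative phosphorylation subunits were higher in siLoxL1 arrays and 78 in siLoxL2 arrays, with medians of 0.66 and 0.54, where slide and siRNA cannot be told apart. Cytosolic ribosomal proteins had medians of 0.17 and 0.15 there.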
